A study of Rattus norvegicus with 6 samples.

Results

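The carnitine shuttle and the fuel switch were followed in 9 genes, Cpt1a, Cpt1b, Cpt2, Crat, Pdk2, Pdk4, Angptl4, Ucp2 and Ucp3, of 18166 genes measured on 6 rat arrays. They were chosen by name as a set of PPARα targets, with earlier results of these data known. Each was read by the brightest probe set (the group of array probes that reports one transcript) that carries a single gene symbol. All 9 had 1 such probe set. The arrays, 3 Hlirag and 3 diabetic, held RNA of male Sprague–Dawley rats. According to the methods, the animals of both groups were 5 weeks old at the start, ate a high-fat diet for 4 weeks and were then made diabetic with the β-cell toxin streptozotocin (30 mg/kg). The Hlirag rats next had daily injections of the GLP-1 receptor agonist liraglutide (0.4 mg/kg/day, 12 weeks), and the diabetic rats had saline. The samples are labelled as 17 weeks old. Their labels call the treated samples liraglutide-treated without a dose, and leave unsaid whether every array stands for a different animal. The p-values below therefore cover only the spread among these samples, and that spread may be technical.

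Long-chain fatty acids cross into the mitochondrion as carnitine esters. The CPT1 enzymes of the outer membrane form the ester, a translocase carries it inward, CPT2 turns it back into acyl-CoA, and carnitine acetyltransferase (Crat) buffers acetyl-CoA against free carnitine. Pyruvate dehydrogenase kinases such as PDK2 and PDK4 switch off the entry of pyruvate into the citric acid cycle and so favour fat as fuel, ANGPTL4 inhibits lipoprotein lipase, which releases fatty acids from circulating triglycerides, and UCP2 and UCP3 are carriers of the inner mitochondrial membrane whose genes respond to fatty acids. PPARα is a nuclear receptor that binds fatty acids, pairs with RXR on DNA and is a main regulator of several of these genes in heart, liver and brown fat.

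The marker genes went against the label cardiac muscle on most arrays. All 8 white and general adipocyte markers lay above the background level of 5.60 on every array (log2 signal, the 95th percentile of 67 olfactory receptor genes), as did 4 of 6 brown adipocyte markers, 1 of 8 measured ventricular cardiomyocyte markers and 0 of 3 measured atrial ones. Myh6 and Tnnt2, contractile genes of heart muscle, were above background on Hlirag replicate 1 and diabetic replicate 1 only, where Myl7, an atrial gene, was also highest (8.98 and 10.30). Irx4, known from the ventricle, was above background on no array. The titles of the samples begin with arota and their free text speaks of adipose, so the tissue is named here only as labelled. Some arrays stood apart. Skeletal muscle markers were high on diabetic replicates 1 and 2, with 6 of 6 measured markers lower in Hlirag at the criterion below. The log2 of their summed signal, which the brightest markers weigh on most, was 7.83 to 8.08 on Hlirag arrays and 8.00 to 14.28 on diabetic arrays. Nerve markers were high on the same arrays, with 4 of 6 lower. The log2 of their sum was 8.67 to 8.69 on Hlirag arrays and 8.75 to 13.68 on diabetic arrays. Hlirag replicate 3 had a narrower range of values, with an SD over genes of 1.52 against 1.84 to 1.98 on the other arrays and an olfactory receptor median of 4.45 against 3.25 to 3.68. In bulk RNA, fewer cells of a type and less RNA per cell cannot be told apart.

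Differences are log2 fold changes, Hlirag minus diabetic, from limma fitted to all genes. A gene counted as called at the criterion of the study when its p before adjustment was below 0.05 and its fold change above 1.5 (0.585 on the log2 scale). It was met by 687 genes, which is 3.78% of those tested, with 294 higher in Hlirag (1.62%) and 393 lower (2.16%). With each array centred on its median, which moved the median difference of all genes to -0.14, the split was 128 higher and 383 lower. No gene passed an adjusted p of 0.05 with limma or with the methods' one-way test, although 752 and 690 had an unadjusted p under 0.05, and the lowest adjusted p of any gene was 0.78 with limma. Of the 9 genes, 2 met the criterion against this background of 3.78%, Cpt2 as the 1 higher and Cpt1a as the 1 lower gene. None met it with the methods' one-way test. The groups overlapped in all 9, while they did not overlap in 11.1% of all genes. The median difference of the 9 genes was -0.09, beside 0.00 over all genes, and 4 lay above 0 and 5 below, with Crat and Pdk2 passing below 0 under median centring. All 9 were above the background level on every array.

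**Figure D1:**
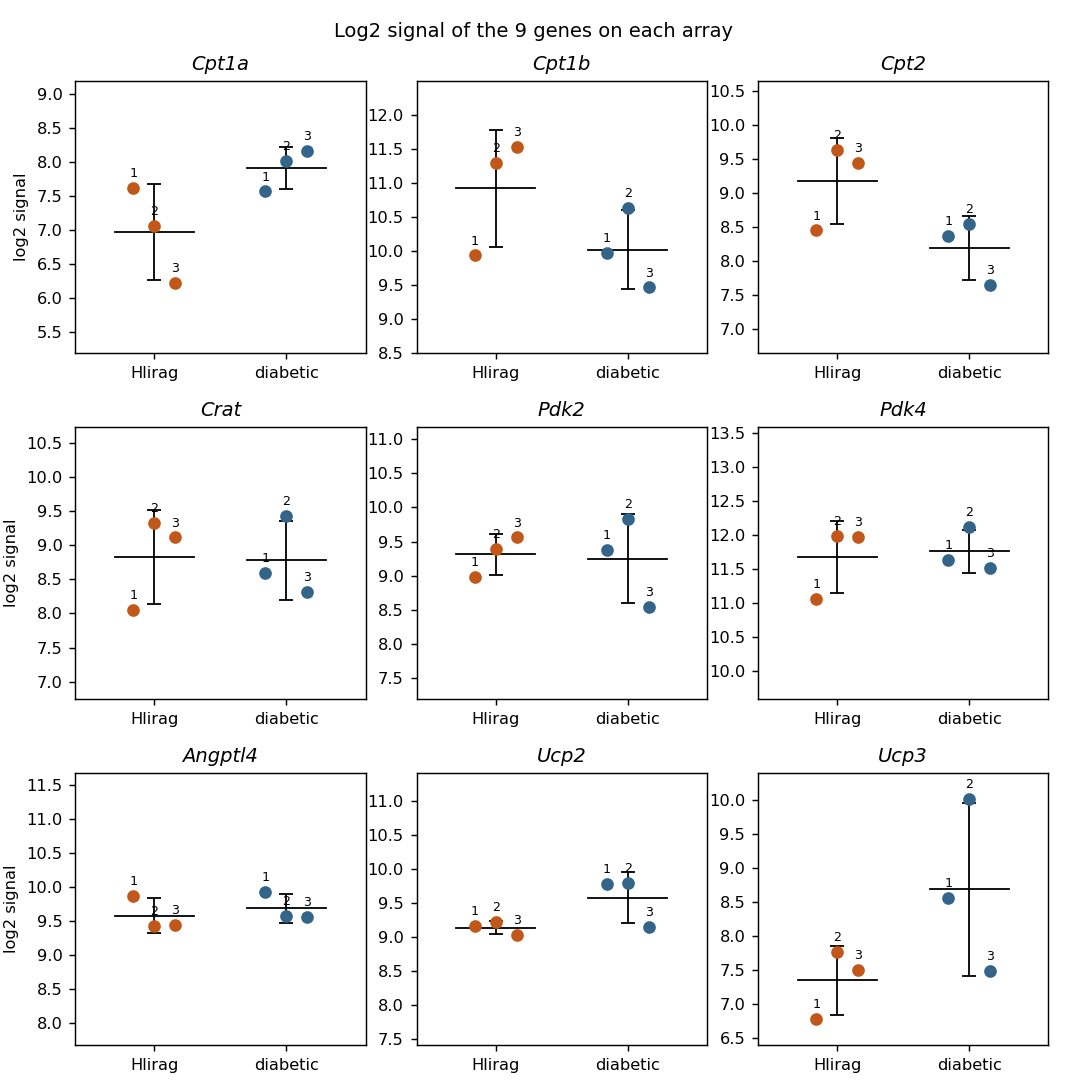
Log2 signal (vertical axes, each spanning the same 4 log2 units around its own middle) of the 9 genes on the 3 Hlirag and 3 diabetic arrays; numbers are replicates, bars the group mean and whiskers 1 SD. The groups overlap in every panel, Cpt1a lies lowest on Hlirag replicate 3 and Ucp3 highest on diabetic replicate 2.

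The promoters of Cpt1a, Cpt2 and Ucp3 are shown because these were the 2 genes at the criterion and the gene with the widest spread over arrays. Each window runs from 250 bases before the start of the gene to 50 after it in RefSeq on rat build GRCr8, 5′ to 3′ on the strand of the gene, at chr1:209995910-209996209 (plus strand) for Cpt1a, chr5:127910769-127911068 (minus strand) for Cpt2 and chr1:164227660-164227959 (plus strand) for Ucp3. Capitals mark GGGCGG boxes in Cpt2, and in Ucp3 the AGGTCA hexamer and the DR1-like match described after them. Cpt1a has no capitals because none of the motifs searched was in its window.
Cpt1a: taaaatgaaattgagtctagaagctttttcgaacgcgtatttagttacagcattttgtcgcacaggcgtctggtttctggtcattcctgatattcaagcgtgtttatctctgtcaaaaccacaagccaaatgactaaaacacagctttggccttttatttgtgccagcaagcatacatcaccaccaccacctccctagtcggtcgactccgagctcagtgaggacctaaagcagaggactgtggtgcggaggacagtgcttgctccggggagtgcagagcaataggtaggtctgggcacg
Cpt2: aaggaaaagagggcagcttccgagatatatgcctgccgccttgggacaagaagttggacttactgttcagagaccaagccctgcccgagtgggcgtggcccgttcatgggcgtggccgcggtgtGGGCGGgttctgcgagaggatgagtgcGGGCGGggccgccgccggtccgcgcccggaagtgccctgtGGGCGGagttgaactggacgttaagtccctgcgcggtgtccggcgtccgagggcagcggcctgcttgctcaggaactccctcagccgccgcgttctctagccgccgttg
Ucp3: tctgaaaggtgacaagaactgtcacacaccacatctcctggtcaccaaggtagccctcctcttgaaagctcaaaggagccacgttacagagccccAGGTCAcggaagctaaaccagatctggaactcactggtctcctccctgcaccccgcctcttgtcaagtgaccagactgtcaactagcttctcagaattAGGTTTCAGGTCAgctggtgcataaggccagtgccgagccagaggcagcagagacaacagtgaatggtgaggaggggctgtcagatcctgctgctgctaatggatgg
Of the 9 genes, 8 had a window in the RefSeq table, and Cpt1b had none. The PPAR and RXR pair binds a direct repeat of the hexamer AGGTCA with 1 base between the copies, called DR1. On either strand, an exact AGGTCA was found in 1 of the 8 windows, beside 16.2% of 33469 windows of all genes, and a DR1 with at most 2 mismatches in 2 of the 8, beside 3.77% of all windows. Ucp3 held AGGTCA at positions -155 to -150 and -50 to -45 (the start is position 1 and the base before it -1). The second of them lay inside its DR1-like match at -57 to -45, and the Crat window had a DR1-like match at -223 to -211. GGGCGG was present in 4 of the 8 windows against 33.1% of all windows, with 3 copies in Cpt2, and TATAAA in 1 of the 8, Angptl4, against 14.2%. A match of letters describes the window and does not show that a factor binds there.

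Cpt1a and Cpt1b encode the liver-type and the muscle-type form of the enzyme that starts the shuttle, and their differences had opposite signs. Cpt1a had a log2 signal of 7.62, 7.06 and 6.22 on the Hlirag arrays and 7.57, 8.01 and 8.16 on the diabetic arrays, in the order of the replicate numbers, as for all genes below. Hlirag replicate 1 lay just above diabetic replicate 1, and the other Hlirag arrays lay below all diabetic arrays. Its mean was 6.96 ± 0.70 in Hlirag and 7.91 ± 0.31 in diabetic rats (SD, n = 3 each), a difference of -0.95 (SE 0.38, 95% interval -1.82 to -0.07) or 1.93-fold lower in Hlirag. It met the criterion with an unadjusted p of 0.0373 in limma and an adjusted p of 0.78. The call was lost when any of the arrays numbered 2 or 3 was left out, and without Hlirag replicate 3, the array with the narrower range of values, the difference was -0.58.

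Cpt1b had a log2 signal of 9.93, 11.29 and 11.53 on the Hlirag arrays and 9.97, 10.63 and 9.46 on the diabetic arrays. Hlirag replicates 2 and 3 lay above every diabetic array, and Hlirag replicate 1 lay among them. The means were 10.92 ± 0.86 in Hlirag and 10.02 ± 0.58 in diabetic rats (SD, n = 3 each). The difference of 0.90 (SE 0.48, 95% interval -0.21 to 2.01) did not meet the criterion, with an unadjusted p of 0.0981 in limma. It met it without Hlirag replicate 1, at 1.39, or without diabetic replicate 2, at 1.20.

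Cpt2, the enzyme of the inner membrane that closes the shuttle, was the gene at the criterion on the higher side. Its log2 signal was 8.45, 9.64 and 9.45 on the Hlirag arrays and 8.37, 8.55 and 7.66 on the diabetic arrays. Hlirag replicates 2 and 3 were the highest, Hlirag replicate 1 lay between diabetic replicates 1 and 2, and diabetic replicate 3 was the lowest. The means of 9.18 ± 0.64 in Hlirag and 8.19 ± 0.47 in diabetic rats (SD, n = 3 each) differed by 0.99 (SE 0.39, 95% interval 0.09 to 1.88), which is 1.98-fold, with an unadjusted p of 0.0349 and an adjusted p of 0.78 in limma. The call was lost under median centring, at 0.85, and when either of Hlirag replicates 2 and 3 or of diabetic replicates 1 and 3 was left out, with differences of 0.72 to 1.35 over the 6 omissions. Against diabetic replicate 3 alone, without the 2 arrays high in skeletal muscle markers, the difference was 1.52. This value rests on 1 diabetic array, the lowest of the 6 for Cpt2, and like the other values below without diabetic replicates 1 and 2 it is given with no test. Some brown adipocyte markers moved in the same direction, with 3 of 6 higher at the criterion (Ucp1, Cidea and Cox8b). Ppargc1a stood at -0.10 and Dio2 at 0.39, both highest on diabetic replicate 1, and Elovl3 was below background on every array. The log2 of the summed signal of the list was 12.98 to 13.98 on Hlirag arrays and 11.89 to 13.11 on diabetic arrays, which overlap. The part of these markers in the differences of Cpt1b and Cpt2 was not tested.

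Crat, the short-chain acetyltransferase of the same family, did not meet the criterion. Its log2 signal was 8.05, 9.34 and 9.12 on the Hlirag arrays and 8.60, 9.44 and 8.32 on the diabetic arrays. The highest value was on diabetic replicate 2 and the lowest on Hlirag replicate 1. The difference was 0.05 (SE 0.43, 95% interval -0.94 to 1.04), so that a change of 1.5-fold in either direction lies inside the interval. The difference of Cpt2, 0.99, lies inside it too. Within each array, Cpt2 minus Crat was 0.41, 0.31 and 0.33 in Hlirag and -0.22, -0.88 and -0.66 in diabetic rats, and these differences did not overlap between the groups. How often pairs of other genes separate in this way was not computed, and of single genes 11.1% do. Levels of different probe sets cannot be compared, so only the distance of 0.94 between the group means of this difference can be read. It is 1 of 5 pairs of the 9 genes set against each other after their values had been seen, and is given with no test. For Cpt2 minus Cpt1a the distance was 1.94 and for Cpt1b minus Cpt1a 1.85, and for both pairs the value on Hlirag replicate 1 lay within or beside the diabetic values (Cpt2 minus Cpt1a 0.84, 2.59 and 3.23 in Hlirag and 0.81, 0.54 and -0.50 in diabetic rats).

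Pdk4 and Pdk2, the kinases that hold pyruvate dehydrogenase inactive, showed no difference past the spread between arrays. Pdk4 had a log2 signal of 11.05, 11.98 and 11.96 on the Hlirag arrays and 11.63, 12.11 and 11.52 on the diabetic arrays. Its lowest value was on Hlirag replicate 1 and its highest on diabetic replicate 2. The difference was -0.09 (SE 0.32, 95% interval -0.84 to 0.67), and it was 0.15 without diabetic replicates 1 and 2. Pdk2 had 8.98, 9.39 and 9.56 on the Hlirag arrays and 9.38, 9.83 and 8.54 on the diabetic arrays. The diabetic arrays held both its highest and its lowest value. The difference of Pdk2 was 0.06 (SE 0.36, 95% interval -0.78 to 0.90), and Pdk4 minus Pdk2 differed by -0.15 between the group means. For both kinases a change of 1.5-fold in either direction lies inside the interval.

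Angptl4 had the narrowest spread of the 9 genes. Its log2 signal was 9.87, 9.43 and 9.44 on the Hlirag arrays and 9.93, 9.58 and 9.56 on the diabetic arrays. Replicate 1 was the highest array in both groups. The means were 9.58 ± 0.25 in Hlirag and 9.69 ± 0.21 in diabetic rats (SD, n = 3 each), and the difference was -0.11 (SE 0.24, 95% interval -0.67 to 0.45).

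Ucp3, the uncoupling protein known from skeletal muscle and brown fat, had the widest spread, 3.24 log2 units over the 6 arrays. Its log2 signal was 6.78, 7.76 and 7.50 on the Hlirag arrays and 8.56, 10.02 and 7.48 on the diabetic arrays. Diabetic replicates 1 and 2 lay above all other arrays, and diabetic replicate 3 lay among the Hlirag arrays. The means were 7.35 ± 0.51 in Hlirag and 8.69 ± 1.27 in diabetic rats (SD, n = 3 each), and the difference of -1.34 (SE 0.61, 95% interval -2.75 to 0.07), a fold of 2.53, did not meet the criterion, with an unadjusted p of 0.0598 in limma. The arrays high in Ucp3 were those high in skeletal muscle and nerve markers. Of the skeletal muscle markers, Actn3, Tnni2, Pvalb and Myoz1 were below background on the other 4 arrays. Acta1 was above background on every array, at 6.75 to 7.09 on those 4. Tnnt3 was also above it on Hlirag replicate 1 (6.05) and diabetic replicate 3 (5.69). Without diabetic replicates 1 and 2, which leaves 1 diabetic array and no test, the difference of Ucp3 was -0.13, without diabetic replicate 2 alone it was -0.67, and without diabetic replicate 3 it was -1.94 and met the criterion.

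Ucp2, the more widely expressed relative, lies on the same chromosome, and the starts of the Ucp3 and Ucp2 windows are 23.5 kb apart. Its log2 signal was 9.16, 9.22 and 9.03 on the Hlirag arrays and 9.78, 9.79 and 9.15 on the diabetic arrays. Diabetic replicates 1 and 2 were again the highest, and diabetic replicate 3 fell within the Hlirag values. The means were 9.14 ± 0.10 in Hlirag and 9.57 ± 0.37 in diabetic rats (SD, n = 3 each). The difference of -0.44 (SE 0.25, 95% interval -1.03 to 0.15) did not meet the criterion and was -0.01 without diabetic replicates 1 and 2 and -0.65, at the criterion, without diabetic replicate 3. Ucp3 minus Ucp2 was -2.38, -1.45 and -1.53 on the Hlirag arrays and -1.22, 0.22 and -1.67 on the diabetic arrays, which overlap.

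**Figure D2:**
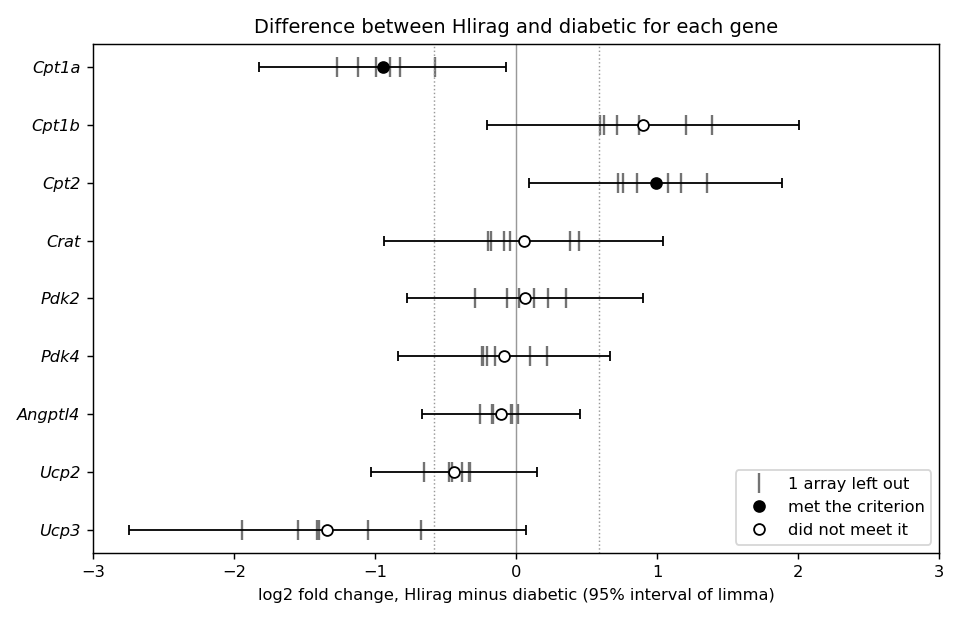
Log2 fold change, Hlirag minus diabetic, of the 9 genes (horizontal axis, points) with the 95% interval of limma (bars); grey ticks are the values with 1 array left out, dotted lines the 1.5-fold limit, and filled points the genes at the criterion. The intervals of 7 of the 9 genes span 0, and those of Cpt1a (-1.82 to -0.07) and Cpt2 (0.09 to 1.88) lie on opposite sides of it.

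Over the 6 arrays, the 7 genes whose values spanned more than 1 log2 unit were each set against 9540 other genes above background, by the root mean square difference of mean-centred log2 values. Cpt2 was most like Hadhb, a subunit of the mitochondrial trifunctional protein of β-oxidation (0.05), and Sdhb, a subunit of succinate dehydrogenase (0.05). Cpt1b was most like Cox6b1, a subunit of cytochrome c oxidase (0.14), and Ogdh, of the citric acid cycle (0.15), and its nearest gene among the 9 was Cpt2 (0.23). Cpt1a was most like F2r, the thrombin receptor (0.03), and Vat1 (0.07), and its nearest among the 9 was Ucp2, at 0.57. Crat was most like Abhd1 (0.10) and Coq10a (0.18), Pdk2 like Ablim3 and Arsa (0.10 each), and Pdk4 like Rph3al and Nek8 (0.15 each), and Crat and Pdk4 were each other's nearest among the 9 (0.20). Ucp3 was most like Lrrc20 and Fbp2, the muscle fructose bisphosphatase (0.26 each). These are descriptions over 6 arrays and carry no test.

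**Figure D3:**
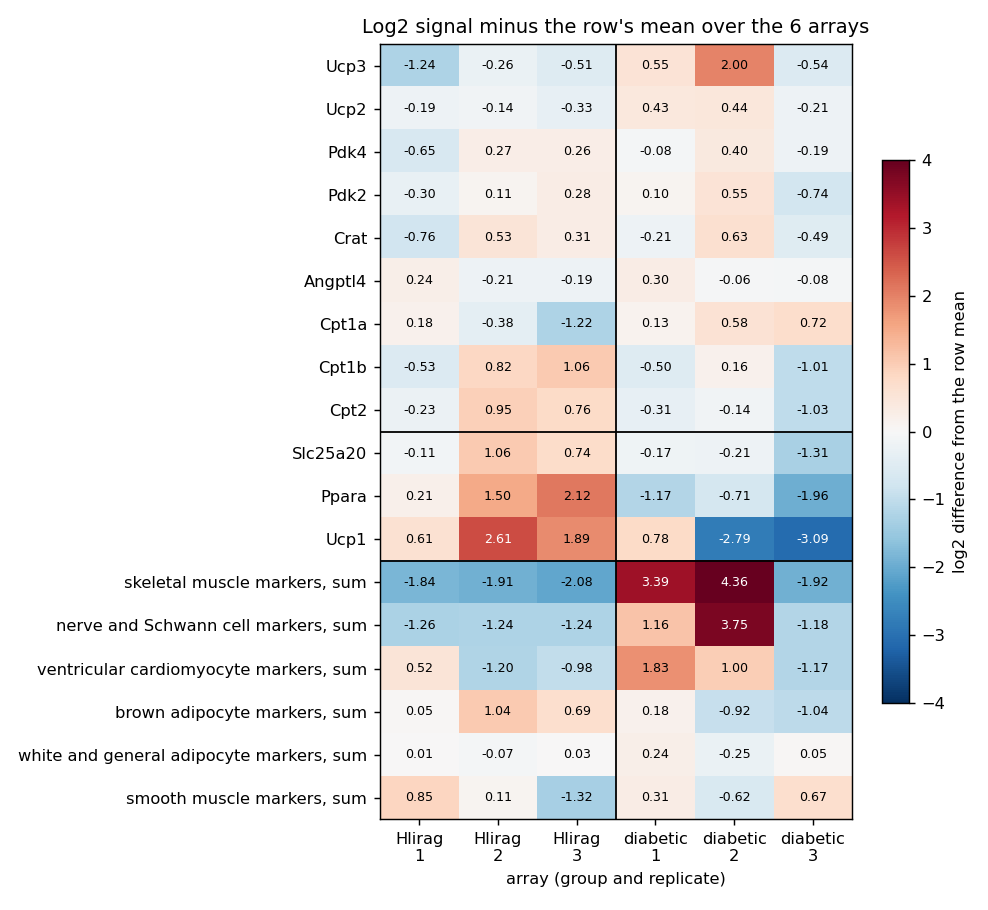
Log2 signal minus the mean of the row over the 6 arrays (colour and printed value) for the 9 genes, for Slc25a20, Ppara and Ucp1, and for the summed signal of marker lists; columns are the arrays, Hlirag left of diabetic. Ucp3 and the sum of skeletal muscle markers are both highest on diabetic replicate 2 (log2 signal 10.02 and 14.28), while Ppara is above its mean on every Hlirag array and below it on every diabetic array.

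The receptor itself differed more than any of the 9 genes. Ppara had a log2 signal of 8.84, 10.13 and 10.75 on the Hlirag arrays and 7.45, 7.92 and 6.66 on the diabetic arrays. Every Hlirag array lay above every diabetic array. The difference was 2.56 (SE 0.52, 95% interval 1.34 to 3.78), 5.90-fold higher in Hlirag, with an unadjusted p of 0.0014 and an adjusted p of 0.78 in limma. It stayed at the criterion whichever array was left out (2.14 to 3.09), and was 3.24 without diabetic replicates 1 and 2. Some brown adipocyte markers moved in the same direction, as given above, and the part of the list in the difference of Ppara was not tested. Among the other 7 receptors and coactivators none met the criterion. The nearest to it were Pparg, the receptor of fat cells, at 0.56 and the coactivator Ppargc1b at 0.57 (unadjusted p of 0.0970 and 0.0980 in limma).

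Genes around the shuttle and the switch were read from 7 lists by role, in which 62 of 69 genes were measured and the other 7 were not analysed here. Of the 62, 9 were higher and 2 lower in Hlirag at the criterion, beside 1.62% and 2.16% of all genes, 42 lay above 0, and the median difference was 0.30 beside 0.00 over all genes. The lists were chosen with earlier results of these data known, so these counts describe the lists and are no evidence of enrichment. In carnitine supply and shuttle, 1 of 7 genes was higher, Slc25a20, the translocase that carries acylcarnitine across the inner membrane. Slc25a20 had a log2 signal of 8.88, 10.05 and 9.73 on the Hlirag arrays and 8.83, 8.79 and 7.69 on the diabetic arrays, which did not overlap, although Hlirag replicate 1 exceeded diabetic replicate 1 by little. Its difference was 1.12 (SE 0.42), and the call was lost when Hlirag replicate 2 or 3 was left out, without diabetic replicate 3, at 0.75, and under median centring, at 0.98. Next by p was Aldh9a1, which acts in carnitine synthesis, at 0.43. Malonyl-CoA inhibits CPT1, and none of 3 genes of the malonyl-CoA switch met the criterion. Acaca stood at 0.86, Acacb at 0.46 and Mlycd, whose enzyme breaks malonyl-CoA down, at 0.05.

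In the pyruvate dehydrogenase complex and its regulators, 1 of 11 measured genes was higher, Pdhx, the protein that tethers the E3 subunit, at 0.86 (SE 0.27). Its call was lost without Hlirag replicate 2 or diabetic replicate 3. Pdhb, a subunit of E1, stood at 0.77 without meeting it (unadjusted p of 0.0511 in limma), and the median of the list was 0.62. None of 5 measured genes of lipoprotein lipase and its regulators met the criterion, with Lmf1 at 0.31 and Apoa5, below background on every array but Hlirag replicate 3, at 0.48. Among 4 other uncoupling proteins 1 was higher, Ucp1 of brown fat. Ucp1 had a log2 signal of 10.75, 12.75 and 12.03 on the Hlirag arrays and 10.92, 7.35 and 7.05 on the diabetic arrays. Diabetic replicate 1 lay within the Hlirag values and the other diabetic arrays far below them. The difference was 3.40 (SE 1.01) and met the criterion whichever array was left out (2.71 to 4.64), but not with the methods' one-way test or with values below background raised to it. Slc25a14, below background on every array but diabetic replicate 2, stood at -0.59.

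Among 24 measured other targets of PPARα, 17 lay above 0 and 7 below, and the median was 0.32. The lowest, named for this alone, was Fabp3 at -0.94 (SE 0.99), which did not meet the criterion. At the criterion, 5 were higher and 2 lower. The higher ones were Acadm at 1.27, Acadl at 0.78 and Acadvl at 0.87, the acyl-CoA dehydrogenases of medium, long and very long chains, Hadhb at 0.93 and Decr1, a dienoyl-CoA reductase for unsaturated chains, at 0.83. Etfdh at 0.92, Acaa2 at 0.61 and Hadha at 0.52, which also act in mitochondrial β-oxidation and are named here after their values were seen, did not meet the criterion. The part in these values of the brown adipocyte markers given above was not tested. The lower ones were Plin2, a coat protein of lipid droplets, at -0.90 and Ehhadh, a bifunctional enzyme of peroxisomes, at -0.83. Plin2 was -0.43 without diabetic replicates 1 and 2. Of the 24 targets, 6 did not overlap between the groups, beside 11.1% of all genes. They were Acadl, Acadvl, Decr1 and Plin2 and, outside the calls and named for this alone, Slc27a1 (-0.82) and Fgf21, below background on every array. Each of the 7 calls was lost without at least 1 of the arrays, the 5 higher genes all losing it without Hlirag replicate 2 and without diabetic replicate 3, and Ehhadh losing it on leaving out any of 5 of the 6 arrays. Scaling also ended some of them, as Hadhb was at 0.85 under quantile normalization and 0.79 under median centring, Acadl at 0.69 and 0.65, and Ehhadh at -0.72 under quantile normalization. With the methods' one-way test Acadvl and Decr1 were the 2 of the 7 that met the criterion.

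**Figure D4:**
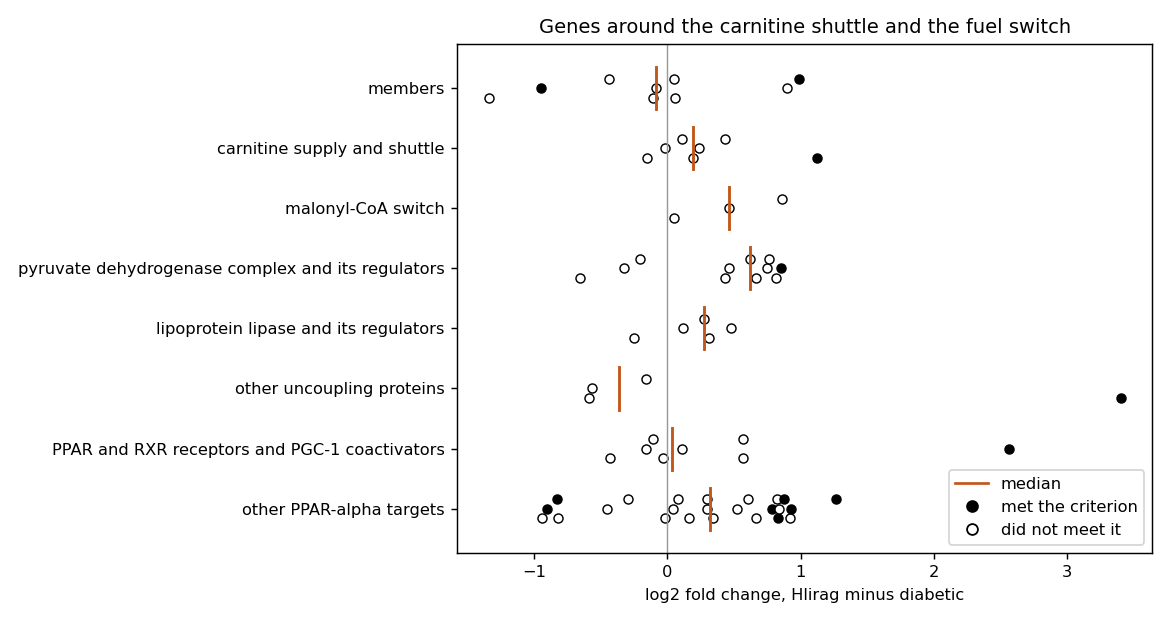
Log2 fold change, Hlirag minus diabetic (horizontal axis), of each measured gene of the 9 genes (members, top row) and of the 7 role lists; filled points met the criterion and orange lines are medians. The median of the 9 genes is -0.09 and that of the 24 other targets 0.32, and Ucp1 (3.40) and Ppara (2.56) stand far to the right of the rest.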

How the data were processed

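Affymetrix Rat Gene 2.0 ST arrays measured the RNA of 3 Hlirag and 3 diabetic samples. The authors made 1 log2 value per probe set and array with Expression Console, and these deposited log2 values were used as they stand. How the signals were summarised, normalized and centred is not given in the sources used here, and that they are log2 values was inferred from their range. Samples were grouped by their titles, and the treatment is taken from the study's methods. No array pair held identical values.

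Of 36685 probe sets, 18511 carried 1 symbol in the platform annotation, 575 several and 17599 none. The probe set with the highest mean stood for each of 18166 genes. limma 3.58.1 in R 4.3.3 (lmFit and eBayes, group only) gave two-sided p-values, with the Benjamini-Hochberg adjustment made over these genes. The test was checked on simulated data. The one-way test of the methods was an alternative, as were centring on the median, quantile normalization, leaving out dim genes, other uses of probe sets, a floor at the background level, a replicate block, and leaving out arrays. The 9 genes, the role lists and the marker lists were chosen with earlier results of these data known. Named genes are the 9, Ppara, the genes of each role list at the criterion or else up to 2 by lowest p, and the 2 most alike genes of each of the 9 that spanned over 1 log2 unit. The 5 pairs of genes were added after the values were seen. Exact permutation tests first run on them are not reported for that reason. Promoter windows come from RefSeq (GRCr8). Arrays have no read depth, and 3 arrays per group limit the precision. Python 3.11.15, pandas 2.3.3, numpy 2.4.6 and matplotlib 3.10.9 made the tables and figures.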

Additional observations from a re-analysis of the deposited data

How the results depend on the processing

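With the methods' one-way test, 236 genes, 4 genes of the role lists and 0 of the 9 genes met the criterion, against 687, 11 and 2 with limma. Raising values below background to it gave 181, 5 and 0, although the values of Cpt1a and Cpt2 themselves stay as they were, since only the spread shared across genes moves. Median centring left 1 of the 9 genes, and testing only genes above background gave 448 genes in all. Without diabetic replicates 1 and 2, when the 1 diabetic array left is assumed to vary like the Hlirag arrays, there were 286 genes and 1 of the 9. With 1 array left out, the counts were 226 (without Hlirag replicate 2) to 2018 (without Hlirag replicate 1) genes, 5 to 23 genes of the role lists and 0 to 3 of the 9, an arm of 2 arrays then sharing the spread of the other. Quantile normalization gave 292 genes higher and 356 lower.

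The labels number the replicates alike in both groups and do not say whether the numbers pair the samples. Deviations from the group means of same-numbered arrays correlated at 0.32, 0.04 and 0.15. Hlirag replicates 1 and 3 correlated best with the diabetic array of the same number, and Hlirag replicate 2 with diabetic replicate 1 (0.16). Over all probe sets, Hlirag replicate 1 and diabetic replicate 1 were the most alike of all array pairs (r = 0.98). These values cannot settle whether the samples were paired, and the main fit used group only. With the replicate block 1117 genes met the criterion and 2 of the 9, which were Cpt2 and Ucp3 (unadjusted p of 0.0296 in limma), while Cpt1a did not (0.0579), and of the role genes named as called Hadhb did not (0.0544).

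Directions near 0 turned for 4 of the 9 genes. Crat was -0.087 and Pdk2 -0.080 under median centring, and Pdk4 was 0.15 and Angptl4 0.025 without diabetic replicates 1 and 2. With 1 array left out, Crat ran over -0.20 to 0.44, Pdk2 over -0.30 to 0.35, Pdk4 over -0.24 to 0.22 and Angptl4 over -0.26 to 0.013. The other 5 kept their direction under every alternative run. The cause was not tested.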
